A study of Mus musculus with 8 samples.

Results

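The genes described here encode the invariant CD3 chains of the T cell receptor (Cd3d, Cd3e, Cd3g and Cd247), the kinase and the adaptor that act next to it (Zap70 and Lat), and 4 proteins found on the surface of most T cells (Thy1, Cd5, Cd7 and Cd2). The 10 genes were taken by name from the 27179 gene identifiers counted. All 10 had reads in every library and passed the filter on low counts, which left 13794 genes for testing. RNA had been sequenced from natural killer T (NKT) cells of the thymus of C57BL/6 mice, T cells whose nearly invariant receptor recognises lipids presented by CD1d. The mice were Ezh2-KO or wild type (WT); Ezh2 is the catalytic subunit of PRC2, a Polycomb complex that places a silencing methyl mark on histone H3. By surface CD44 and NK1.1 the cells formed 3 subsets, CD44- NK1.1-, CD44+ NK1.1- and CD44+ NK1.1+, commonly placed in that order in NKT development. Each genotype had 2 biological replicates of the CD44+ NK1.1- subset and 1 library of each of the other subsets, 8 libraries in all. Not given in the sources used here are the knockout allele, the promoter of any Cre, the age of the mice and any pooling of animals.

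The alpha and beta chains that recognise antigen have no signalling part of their own and depend on the CD3 chains for both assembly and signalling. The gamma, delta and epsilon chains (Cd3g, Cd3d, Cd3e) and the zeta chain (Cd247) carry tyrosine motifs called ITAMs, which the kinase Lck phosphorylates. Zap70 docks on the phosphorylated ITAMs and in turn phosphorylates Lat, the membrane scaffold on which the downstream enzymes gather. Zeta is known to join the receptor last and to limit how many complete receptors reach the surface. Cd5 is a surface protein that dampens receptor signalling in thymocytes, Cd2 is an adhesion receptor that binds CD48 in mice, Thy1 is a lipid-anchored glycoprotein, and Cd7 is an immunoglobulin-like protein of T and NK cells.

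Cd3g, Cd3d and Cd3e lie next to one another on chromosome 9 (build GRCm38.p6, RefSeq gene positions 44969572 to 44980431, 44981769 to 44987052 and 44998735 to 45009663), with 1338 bases between Cd3g and Cd3d and 11683 bases between Cd3d and Cd3e. Cd247 lies apart, on chromosome 1 from 165779952 to 165871153. Because PRC2 in mammals is mostly found at promoters rich in CpG, the 250 bases before a RefSeq transcription start of each CD3 gene are shown, 5′ to 3′ on the gene's own strand, with each CpG in capitals. They were read from chr9:44980432-44980681 (minus strand) for Cd3g, chr9:44981536-44981785 (plus strand) for Cd3d, chr9:45009612-45009861 (minus strand) for Cd3e and chr1:165788431-165788680 (plus strand) for Cd247. The Cd247 window lies inside the gene span, past its first base at 165779952, so it precedes an internal start. The bases before 165779952 are not shown.
Cd3g: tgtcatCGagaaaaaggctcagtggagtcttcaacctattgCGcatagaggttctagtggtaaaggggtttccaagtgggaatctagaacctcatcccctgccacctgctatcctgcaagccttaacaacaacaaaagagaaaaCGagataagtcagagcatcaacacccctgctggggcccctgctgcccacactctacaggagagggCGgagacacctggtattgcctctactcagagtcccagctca
Cd3d: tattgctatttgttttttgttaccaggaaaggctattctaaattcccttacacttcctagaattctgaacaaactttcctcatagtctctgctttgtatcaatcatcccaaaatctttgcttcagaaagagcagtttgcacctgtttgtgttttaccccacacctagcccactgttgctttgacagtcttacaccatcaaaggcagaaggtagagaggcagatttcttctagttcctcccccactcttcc
Cd3e: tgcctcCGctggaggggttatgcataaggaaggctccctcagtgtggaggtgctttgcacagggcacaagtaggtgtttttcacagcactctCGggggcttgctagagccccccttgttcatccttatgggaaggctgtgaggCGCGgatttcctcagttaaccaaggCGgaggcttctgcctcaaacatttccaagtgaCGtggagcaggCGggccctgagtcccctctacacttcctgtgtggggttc
Cd247: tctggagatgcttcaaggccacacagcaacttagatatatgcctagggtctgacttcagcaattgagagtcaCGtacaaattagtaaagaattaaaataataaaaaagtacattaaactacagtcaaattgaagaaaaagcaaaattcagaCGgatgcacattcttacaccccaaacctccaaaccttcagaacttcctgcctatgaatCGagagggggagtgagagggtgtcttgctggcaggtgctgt
The windows hold 4 CpGs for Cd3g, 0 for Cd3d, 7 for Cd3e and 3 for Cd247, the last before a start inside the gene. The median over the 32851 promoters in the RefSeq table was 6, and 92.1% of them held at least 1, so the Cd3d window is among the 7.87% with no CpG. Windows were found for 7 of the 10 genes. Those of Lat and Cd5 held 6 and 3 CpGs, and the 3 starts listed for Zap70 held 6, 2 and 7. Of the motifs searched on both strands, TATAAA and TGTGGT were in none of the 4 CD3 windows, against 12.4% and 14.0% of all promoters. CANNTG was in all 4, against 66.2% of all promoters. These are letter matches within the window only.

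Library depth was 20308745 to 22995090 counts. Levels are given as CPM, read counts relative to the TMM-scaled library size, which compare a gene between libraries, and as CPM per kilobase of counted length (CPM per kb) where genes are compared with each other. Ezh2 itself had 40.4 to 83.3 CPM in the Ezh2-KO libraries, against 57.1 to 135.8 CPM in the WT libraries, and was lower in Ezh2-KO within each subset, so part of its reads remained. The 4 NKT markers (Zbtb16, Trav11, Traj18, Cd44) were detected in every library and summed to 391 to 652 CPM. WT CD44+ NK1.1- replicate 1 stood apart: 11 immediate early genes summed to 3279 CPM there, against 505 to 1094 CPM in the other 7 libraries. Markers of B cells (at most 4.78 CPM in sum), myeloid cells (8.09), dendritic cells (10.5) and thymic epithelium (5.79) were low everywhere. In these bulk samples, fewer cells of a kind and less RNA per cell cannot be told apart.

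Of the 4 CD3 chains, Cd247 was higher in Ezh2-KO cells, and Cd3d, Cd3e and Cd3g differed little between genotypes. Cd3e had 401.5 and 395 CPM in the Ezh2-KO CD44+ NK1.1- replicates, against 379.6 and 384.5 CPM in the WT replicates. The Ezh2-KO replicates lie just above the WT ones, and the log2 fold change of 0.06 (standard error 0.09) did not pass the test (edgeR quasi-likelihood, adjusted p = 0.760), with a 95% interval of -0.15 to 0.27. Cd3d had 598.2 and 682.6 CPM in Ezh2-KO, against 636.1 and 549.5 CPM in WT, and Cd3g had 709.0 and 723.0 CPM in Ezh2-KO, against 787.0 and 677.2 CPM in WT. Both genes overlapped between genotypes. Their log2 fold changes were 0.11 (interval -0.18 to 0.40, adjusted p = 0.662) and -0.03 (interval -0.29 to 0.23, adjusted p = 0.905).

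Cd247 had 575.5 and 605.1 CPM in the Ezh2-KO CD44+ NK1.1- replicates, against 326.6 and 341.1 CPM in the WT replicates. The genotypes did not overlap, and the gap between them far exceeded the spread within either pair. The log2 fold change was 0.82 (standard error 0.09, interval 0.60 to 1.04, adjusted p = 0.00747), a level 1.77 times that in WT. Cd247 was higher in Ezh2-KO in the other subsets too, with 389.5 CPM in Ezh2-KO CD44+ NK1.1+ cells against 225.5 CPM in WT, and 622.2 CPM in Ezh2-KO CD44- NK1.1- cells against 532.8 CPM in WT. With 1 library a side these had no replicate check, and neither passed the test (log2 fold changes 0.79 and 0.22, adjusted p = 0.0618 and 0.717). Over the 3 subsets together Cd247 rose by 0.66 on the log2 scale (standard error 0.10, adjusted p = 0.00796). Of the 10 genes it alone had every Ezh2-KO library above every WT library of its subset, which 15.5% of all tested genes also had. Without WT CD44+ NK1.1- replicate 1 the rise in that subset was 0.79, and without Ezh2-KO CD44+ NK1.1- replicate 1 or 2 it was 0.86 or 0.79. The call held in the first of these fits and was lost in the others. Each of them takes the spread from the other pair alone, so neither outcome tests the call. The rise over the 3 subsets was 0.62 to 0.81 in the 8 fits that left out 1 library. Where that library was a CD44- NK1.1- or CD44+ NK1.1+ one, its subset no longer contributed to the genotype effect.

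**Figure D1:**
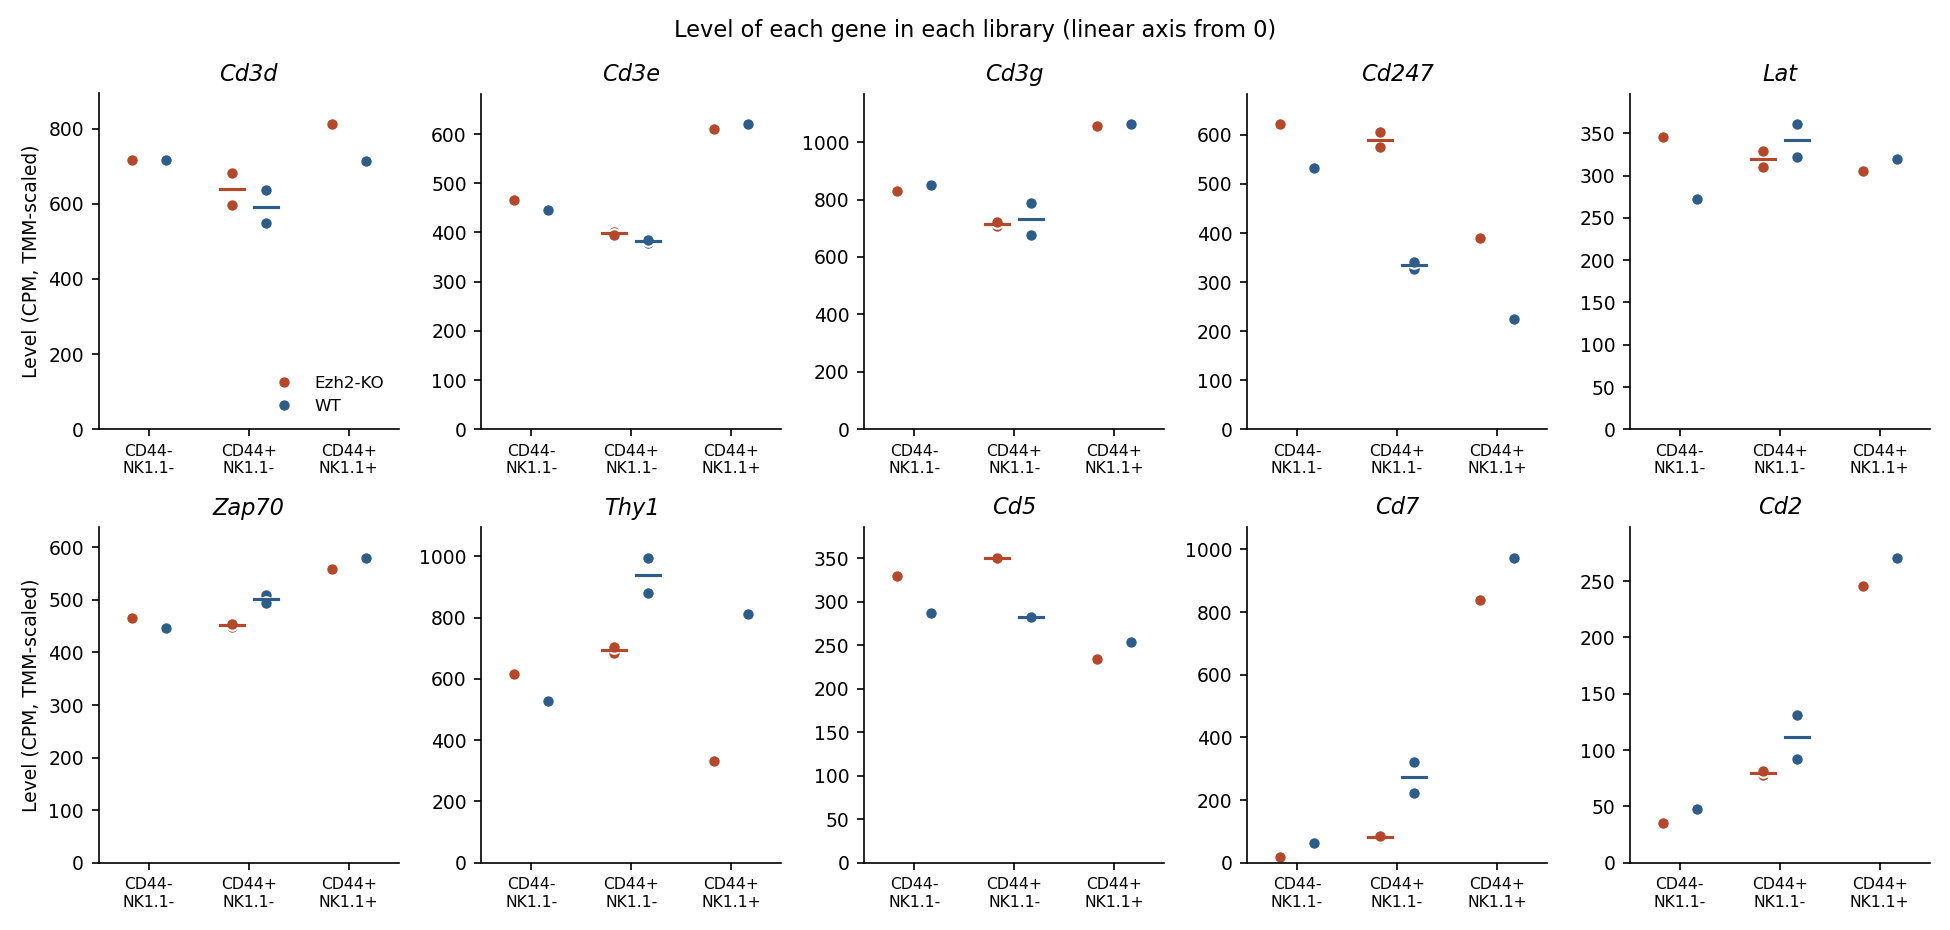
Level of each of the 10 genes in each of the 8 libraries, in TMM-scaled CPM on linear axes from 0, by subset in developmental order, with Ezh2-KO (red) left of WT (blue). Points are libraries and short bars are means of the 2 CD44+ NK1.1- replicates. Cd247 is higher in Ezh2-KO in each subset, Cd7 and Cd2 are lower and climb with the subsets, and Thy1 parts in CD44+ NK1.1+ cells at 331.5 CPM in Ezh2-KO against 811.7 CPM in WT.

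The 3 subsets give Cd247 a different course in each genotype. In Ezh2-KO cells the level was 622.2 CPM in CD44- NK1.1- cells, 575.5 and 605.1 CPM in CD44+ NK1.1- cells and 389.5 CPM in CD44+ NK1.1+ cells. In WT cells it was 532.8 CPM, then 326.6 and 341.1 CPM, then 225.5 CPM. In WT the lower level was thus already present in CD44+ NK1.1- cells, whose log2 fold change against CD44- NK1.1- cells was -0.67 (adjusted p = 0.0424), whereas in Ezh2-KO it was -0.08 (adjusted p = 0.980). The difference between the genotype effects in these subsets was -0.60 for CD44- NK1.1- minus CD44+ NK1.1- cells (interval -0.98 to -0.22), but it did not pass (edgeR unadjusted p = 0.00831, adjusted p = 0.636). Between CD44+ NK1.1+ and CD44+ NK1.1- cells the log2 fold change was -0.60 in Ezh2-KO and -0.57 in WT, a difference of -0.03 (interval -0.41 to 0.35).

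Compared per length, the 4 chains kept the order Cd3g, Cd3d, Cd3e, Cd247 in every library. In CD44+ NK1.1- replicates 1 and 2, Cd3g stood at 693 and 706.7 CPM per kb in Ezh2-KO against 769.3 and 662 CPM per kb in WT, and Cd247 at 125 and 131.4 CPM per kb in Ezh2-KO against 70.9 and 74.1 CPM per kb in WT. Zeta was thus higher in Ezh2-KO cells relative to the mean of the other 3 chains. In CD44+ NK1.1- cells Cd247 was 26.4% and 26.4% of that mean in Ezh2-KO, against 14.1% and 16.6% in WT. In CD44- NK1.1- cells it was 24.2% in Ezh2-KO against 20.7% in WT, and in CD44+ NK1.1+ cells 12.3% in Ezh2-KO against 7.32% in WT. This percentage was lowest in CD44+ NK1.1+ cells in both genotypes, where Cd247 was low and Cd3e and Cd3g were at their highest. Cd247 spans a longer counted stretch (4604 bases) than the other chains (1023 to 1436 bases). It also overlaps Pou2f1, a transcription factor gene, in the RefSeq positions, and whether counting used strand is not given in the sources used here. Pou2f1 had 26.4 to 36.6 CPM in Ezh2-KO against 29.5 to 44.2 CPM in WT, far below Cd247 in every library. Pou2f1 was lower in Ezh2-KO in both subsets with 1 library a side and overlapped between genotypes in CD44+ NK1.1- cells.

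**Figure D2:**
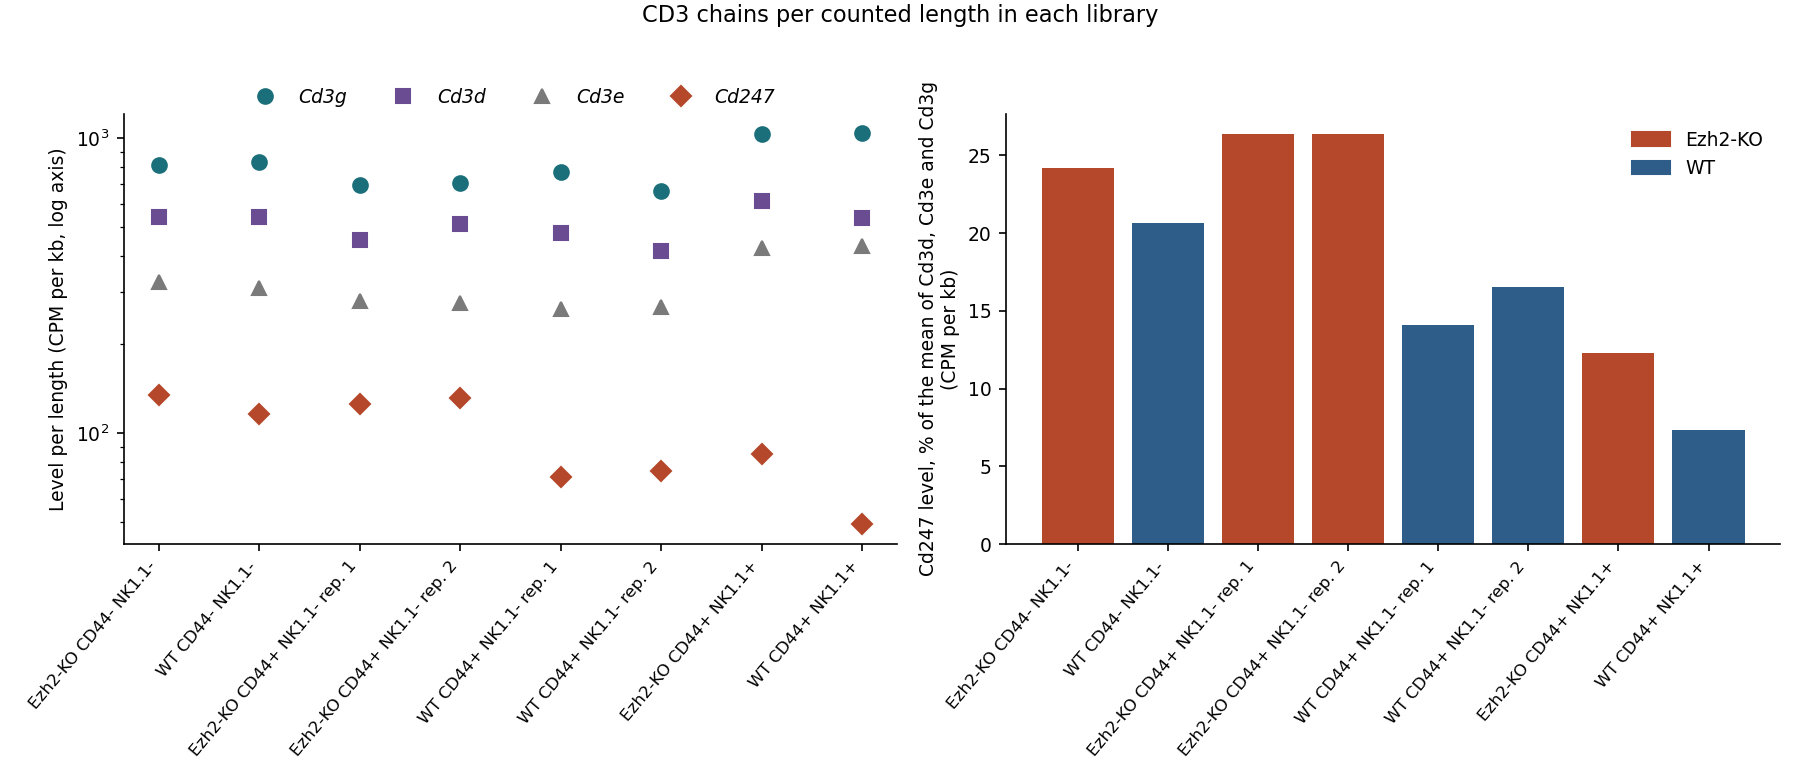
Left, level of the 4 CD3 chains in each library as CPM per kilobase of counted length, on a log axis. Right, Cd247 as a percentage of the mean of Cd3d, Cd3e and Cd3g, with Ezh2-KO bars in red and WT bars in blue. The 3 other chains differ little between genotypes, while Cd247 stands at 26.4% of their mean in both Ezh2-KO CD44+ NK1.1- replicates against 14.1% and 16.6% in WT.

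The summed levels of several marker lists of other cells also lay apart between the genotypes. Genes also used by gamma-delta T cells (Trdc, Trgc1, Trgv6, Sox13, none at 0 in any library) summed to 574.9 and 560.3 CPM in the Ezh2-KO CD44+ NK1.1- replicates against 296.9 and 309.9 CPM in WT. There 4 of the 4 passed, higher, against 3.78% of all genes, with a median log2 fold change of 1.30. In CD44+ NK1.1+ cells 1 of the 4 passed, against 0.95% of all genes, and in CD44- NK1.1- cells 0 did, against 0.239%. In CD44+ NK1.1+ cells the sum was 560.8 CPM in Ezh2-KO against 315.8 CPM in WT, and in CD44- NK1.1- cells 802.5 CPM in Ezh2-KO against 775.9 CPM in WT. Erythroid markers, chiefly the haemoglobin gene Hba-a1, summed to 17.7 and 0.585 CPM in the Ezh2-KO CD44+ NK1.1- replicates, to 18.4 and 51.2 CPM in the Ezh2-KO CD44- NK1.1- and CD44+ NK1.1+ libraries, and to at most 1.42 CPM in the WT libraries. Cd247 had 575.5 CPM in the first of these replicates and 605.1 CPM in the second. NK or innate lymphoid markers summed to 114.9 and 120.4 CPM in the Ezh2-KO CD44+ NK1.1- replicates against 83.2 and 25.9 CPM in WT, to 77.0 CPM in Ezh2-KO CD44- NK1.1- cells against 23.5 CPM in WT, and to 1043 CPM in Ezh2-KO CD44+ NK1.1+ cells against 642.6 CPM in WT. The granzyme gene Gzma made up the largest part of this sum in every library. In CD44+ NK1.1- cells 1 of the 7 rose in Ezh2-KO and the median log2 fold change was -1.44, so sum and median differed in direction. Eomes had 27.18 and 25.96 CPM in the Ezh2-KO replicates there against 0.4506 and 0.5159 CPM in WT. Klra8 had 23.46 and 22.9 CPM in Ezh2-KO against 2.704 and 0.387 CPM in WT. Gzma was also higher in Ezh2-KO without overlap, Fcer1g and Tyrobp were lower without overlap, and Klre1 overlapped. Ncr1, a defining NK receptor gene, was at 0 to 0.225 CPM in the CD44- NK1.1- and CD44+ NK1.1- libraries, too low to compare the genotypes. Markers of double-positive thymocytes summed to 26.1 and 13.6 CPM in the Ezh2-KO CD44+ NK1.1- replicates against 78.8 and 27.9 CPM in WT, and 0 of the 7 passed the test, with a median log2 fold change of -1.50. That sum in CD44- NK1.1- cells was 24.6 CPM in Ezh2-KO against 31.7 CPM in WT, and in CD44+ NK1.1+ cells 60.5 CPM in Ezh2-KO against 52.8 CPM in WT. The part of these 4 groups of markers in the values of Cd247 and the other members was not tested.

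The genes of proximal signalling did not pass the test between genotypes. Zap70 had 449.3 and 454.7 CPM in the Ezh2-KO CD44+ NK1.1- replicates, against 509.4 and 493.5 CPM in WT. The Ezh2-KO replicates were lower without overlap, but by only 0.15 on the log2 scale (interval -0.36 to 0.06, adjusted p = 0.397). Lat had 310.6 and 328.9 CPM in Ezh2-KO, against 361.1 and 322.4 CPM in WT, which overlapped (log2 fold change -0.10, adjusted p = 0.659). In CD44- NK1.1- cells Lat read the other way, 345.4 CPM in Ezh2-KO against 272.6 CPM in WT (log2 fold change 0.34, interval -0.01 to 0.69, adjusted p = 0.562). Lat and Zap70 were the steadiest of the 10 genes, their highest library being 1.32 and 1.30 times their lowest.

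Among the surface genes, Cd7 was lower in Ezh2-KO in the CD44- NK1.1- and CD44+ NK1.1- subsets and close to WT in CD44+ NK1.1+ cells. It had 16.9 CPM in Ezh2-KO CD44- NK1.1- cells against 63.6 CPM in WT, and 79.5 and 83.9 CPM in the Ezh2-KO CD44+ NK1.1- replicates against 320.7 and 223.9 CPM in WT. In CD44+ NK1.1+ cells it had 838.4 CPM in Ezh2-KO against 974.2 CPM in WT. The replicates did not overlap, and the fall in CD44+ NK1.1- cells was 1.74 on the log2 scale (adjusted p = 0.00725). The value in CD44- NK1.1- cells was similar, at -1.91 (interval -2.56 to -1.26), but did not pass (adjusted p = 0.0822). In CD44+ NK1.1+ cells it was -0.22 (interval -0.82 to 0.38, adjusted p = 0.913). Over the 3 subsets together it was -1.39 (interval -2.21 to -0.58) and just missed the threshold (adjusted p = 0.054). That value passed with DESeq2 (adjusted p = 0.00132), limma-voom (0.0239), robust=FALSE (0.0201) and the mean of the 3 genotype effects (0.00588). It did not pass with the other scalings or filters. The genotype effect in CD44+ NK1.1+ minus that in CD44+ NK1.1- cells was 1.52 (standard error 0.30), with an unadjusted p = 0.00249 and adjusted p = 0.649 by edgeR, and an adjusted p = 0.00103 by DESeq2. The level of Cd7 in Ezh2-KO was thus 3.75-fold lower than in WT in CD44- NK1.1- cells, 3.33-fold lower in CD44+ NK1.1- cells and 1.16-fold lower in CD44+ NK1.1+ cells. Without WT CD44+ NK1.1- replicate 1 the log2 fold change in that subset was -1.45, and without Ezh2-KO replicate 1 and 2 it was -1.70 and -1.78. The call held in the first of these fits and was lost in the others. Each of them takes the spread from the other pair alone, so neither outcome tests the call.

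Cd2 lay below WT in each subset, as Cd7 did, but by less. It had 77.5 and 81.2 CPM in the Ezh2-KO CD44+ NK1.1- replicates against 131.5 and 91.9 CPM in WT, 35.3 CPM in Ezh2-KO CD44- NK1.1- cells against 48.0 CPM in WT, and 245.6 CPM in Ezh2-KO CD44+ NK1.1+ cells against 270.9 CPM in WT. The genotypes did not overlap within a subset, but the log2 fold changes of -0.49 in CD44+ NK1.1- cells (adjusted p = 0.188) and -0.39 over the 3 subsets (adjusted p = 0.0759) did not pass. The value over the 3 subsets passed with DESeq2 (adjusted p = 0.0153), and with no other alternative that kept all libraries. The size in CD44+ NK1.1- cells rests on the WT replicates, being -0.21 without replicate 1 (adjusted p = 0.0342) and -0.73 without replicate 2 (adjusted p = 4.04e-19), 2 fits in which the spread comes from the Ezh2-KO pair alone. Cd2 and Cd7 were the members with every Ezh2-KO library below every WT library of its subset, which held for 14.5% of all tested genes. Markers of the NK1.1+ stage moved with both genes: Klrb1c, Tbx21 and Il2rb summed to 462.2 and 418.9 CPM in the Ezh2-KO CD44+ NK1.1- replicates against 1267 and 802.6 CPM in WT. In CD44- NK1.1- cells that sum was 222.8 CPM in Ezh2-KO against 398.7 CPM in WT, and in CD44+ NK1.1+ cells 4532 CPM in Ezh2-KO against 4566 CPM in WT. The part of these markers in the Cd7 and Cd2 values was not tested.

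Thy1 fell in Ezh2-KO CD44+ NK1.1+ cells, and its values lay the other way in CD44- NK1.1- cells. In CD44- NK1.1- cells it had 616.6 CPM in Ezh2-KO against 529.2 CPM in WT. In CD44+ NK1.1- cells it had 683.4 and 705.4 CPM in the Ezh2-KO replicates against 881.6 and 995.9 CPM in WT. In CD44+ NK1.1+ cells it had 331.5 CPM in Ezh2-KO against 811.7 CPM in WT. The sign of the difference thus turned between the first subset and the others, and the replicates of CD44+ NK1.1- cells did not overlap. The log2 fold changes were 0.22 (adjusted p = 0.770), -0.43 (standard error 0.10, adjusted p = 0.0729) and -1.29 (standard error 0.14, adjusted p = 0.0239), of which the last alone passed. The value in CD44+ NK1.1- cells passed with DESeq2 (adjusted p = 0.0124), and with no other alternative that kept both replicates of each genotype. It was -0.52 and -0.34 without WT CD44+ NK1.1- replicate 1 and 2. Without Ezh2-KO CD44+ NK1.1- replicate 1 and 2 it was -0.41 and -0.46. Each of those fits takes the spread from the other pair alone. The call in CD44+ NK1.1+ cells rests on 1 library a side, with the spread taken from the replicated groups. It was lost with limma-voom (adjusted p = 0.0534) and without Ezh2-KO CD44+ NK1.1- replicate 1 or 2 (adjusted p = 0.124 and 0.120), though the fold change stayed the same. The genotype effect in CD44+ NK1.1+ minus that in CD44+ NK1.1- cells was -0.86 (interval -1.28 to -0.43, unadjusted p = 0.00248, adjusted p = 0.649 by edgeR and 0.0429 by DESeq2).

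Cd5 did not pass the test between genotypes, though its replicates separated. It had 351 and 350 CPM in the Ezh2-KO CD44+ NK1.1- replicates against 281.7 and 282.8 CPM in WT, replicate pairs that agree closely and do not overlap. The log2 fold change of 0.31 (interval 0.10 to 0.52) did not pass (edgeR unadjusted p = 0.0106, adjusted p = 0.110). It was 0.310 and 0.315 without WT CD44+ NK1.1- replicate 1 and 2, and 0.311 and 0.315 without Ezh2-KO replicate 1 and 2. Each of those fits takes the spread from the other pair alone. In CD44- NK1.1- cells it had 330.3 CPM in Ezh2-KO against 286.8 CPM in WT, and in CD44+ NK1.1+ cells 234 CPM in Ezh2-KO against 253.7 CPM in WT.

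**Figure D3:**
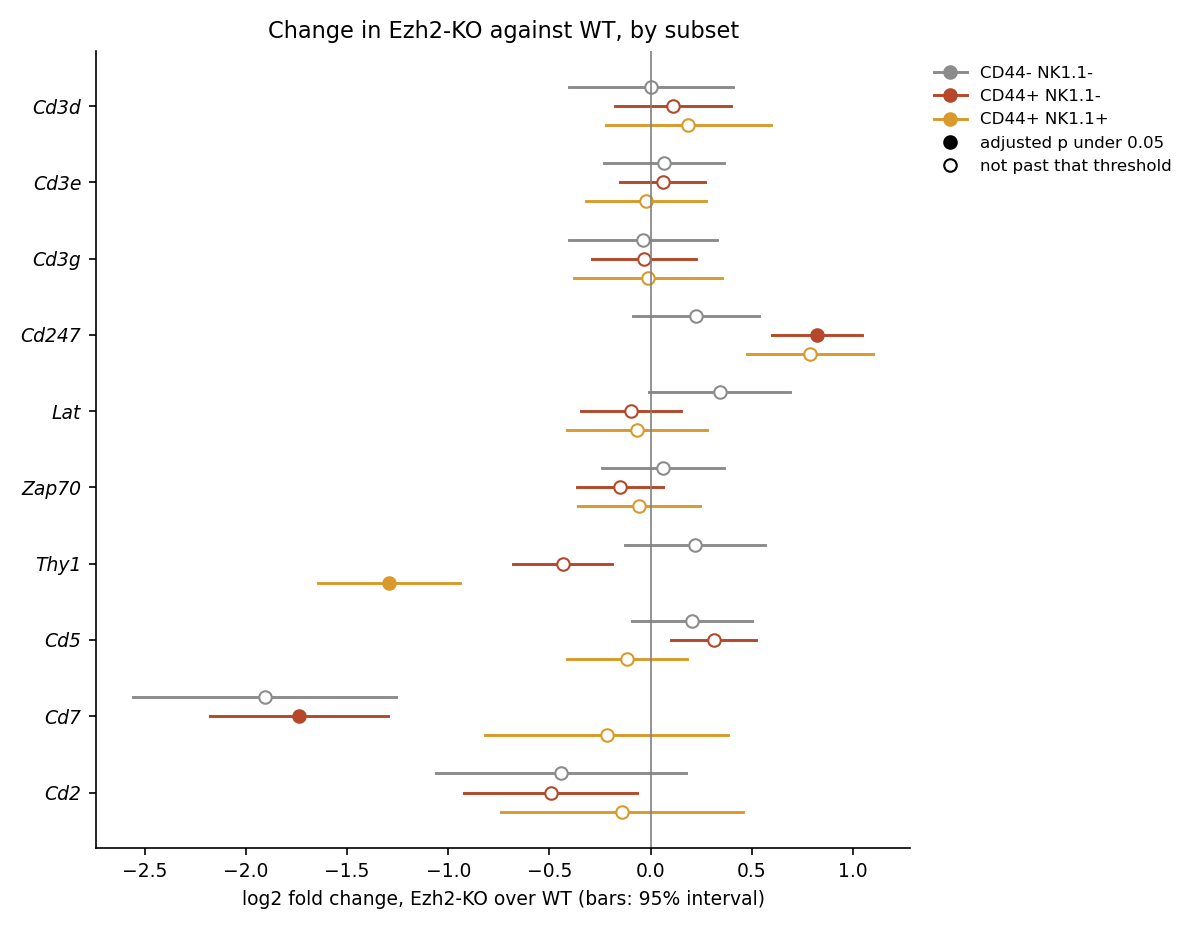
Log2 fold change of each gene in Ezh2-KO over WT in CD44- NK1.1- (grey), CD44+ NK1.1- (red) and CD44+ NK1.1+ cells (yellow), with 95% intervals. Filled points passed an adjusted p of 0.05. Cd247 and Cd7 passed in CD44+ NK1.1- cells and Thy1 in CD44+ NK1.1+ cells, while the intervals of Cd3d, Cd3e and Cd3g span 0 in each subset.

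Counted together, 2 of the 10 genes passed the test in CD44+ NK1.1- cells (Cd247 upward, Cd7 downward), against 4.94% of all tested genes (3.78% higher and 1.16% lower). Over the 3 subsets 1 of 10 passed, higher, against 11.3% of all genes (6.43% higher and 4.89% lower). In CD44+ NK1.1+ cells 1 of 10 passed, lower, against 0.95% (0.79% higher and 0.159% lower). In CD44- NK1.1- cells 0 of 10 passed, against 0.239% (0.181% higher and 0.058% lower). In the latter, 1 of 10 (Cd7) was at an edgeR unadjusted p under 0.05, against 9.04% of all genes. By DESeq2 1 of 10 (Cd7) was called there, against 95 of 13259 genes. In CD44+ NK1.1- cells the replicates of the genotypes did not overlap for 7 of the 10 genes, a share to be read against 52.2% of all tested genes. The median log2 fold change of the 10 genes there was -0.06, against -0.01 over all genes. No difference between genotype effects passed for any member by edgeR. Over all genes 0 passed for CD44+ NK1.1+ minus CD44+ NK1.1- cells (519 at an unadjusted p under 0.05) and 3 passed for CD44- NK1.1- minus CD44+ NK1.1- cells, 0.0217% of those tested.

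Between the subsets, irrespective of genotype, the 10 genes split into groups with unlike courses. In CD44+ NK1.1- against CD44- NK1.1- cells, averaged over both genotypes, 3 of the 10 genes rose and 0 fell, against 2.66% of all genes (1.59% higher and 1.07% lower). Cd7 averaged 177 CPM in CD44+ NK1.1- cells and 40.3 CPM in CD44- NK1.1- cells, a log2 fold change of 2.18 (standard error 0.17, adjusted p = 0.00416). Cd2 averaged 95.5 CPM in CD44+ NK1.1- cells and 41.6 CPM in CD44- NK1.1- cells, a log2 fold change of 1.19 (adjusted p = 0.0211). Both genes were higher in each CD44+ NK1.1- library than in the CD44- NK1.1- library of its genotype. Thy1 rose by 0.50 (adjusted p = 0.0476), but unevenly: the value was 0.17 in Ezh2-KO (adjusted p = 0.925) and 0.83 in WT (adjusted p = 0.0386). The difference between the genotype effects was 0.66 (unadjusted p = 0.00891, adjusted p = 0.640). Without WT CD44+ NK1.1- replicate 1 the values of Cd7, Cd2 and Thy1 were 2.04, 1.05 and 0.54. Without Ezh2-KO CD44+ NK1.1- replicate 1 or 2 Cd7 was 2.20 or 2.16, Cd2 1.21 or 1.18, and Thy1 0.51 or 0.49. Cd2 and Thy1 kept the call in the first of these fits and lost it in the others. Each of them takes the spread from the other pair alone, so neither outcome tests the calls. With all libraries kept, Thy1 lost the call with library size for scaling, limma-voom and robust=FALSE (adjusted p = 0.0546, 0.0572 and 0.0552). Cd2 lost it in Ezh2-KO alone and in WT alone (adjusted p = 0.171 and 0.0698). The CD3 chains Cd3d, Cd3e and Cd3g had values of -0.22, -0.23 and -0.21 that did not pass (adjusted p = 0.392, 0.219 and 0.347).

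In CD44+ NK1.1+ against CD44+ NK1.1- cells, 5 of the 10 genes rose and 3 fell, against 32.5% of all genes that passed in either direction, 16.4% higher and 16.1% lower. Cd7 rose further, by 2.60 on the log2 scale (standard error 0.15, adjusted p = 0.000554), and averaged 906.3 CPM in CD44+ NK1.1+ cells and 177 CPM in CD44+ NK1.1- cells. Cd2 rose by 1.45 (standard error 0.14, adjusted p = 0.00185) and averaged 258.2 CPM in CD44+ NK1.1+ cells and 95.5 CPM in CD44+ NK1.1- cells. Cd7 therefore varied most of the 10 genes, its highest library standing at 57.5 times its lowest, and Cd2 next, at 7.67 times.

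Cd3e and Cd3g rose at the same step while zeta fell. Cd3e had 610.9 CPM in Ezh2-KO and 620.5 CPM in WT CD44+ NK1.1+ cells, above the 379.6 to 401.5 CPM of the 4 CD44+ NK1.1- libraries (log2 fold change 0.66, standard error 0.07, adjusted p = 0.00225). Cd3g had 1055 CPM in Ezh2-KO and 1063 CPM in WT CD44+ NK1.1+ cells, above the 677.2 to 787.0 CPM of the CD44+ NK1.1- libraries (log2 fold change 0.55, standard error 0.09, adjusted p = 0.00767). Both exceeded the spread of the CD44+ NK1.1- libraries in both genotypes. Cd3g no longer passed without Ezh2-KO CD44+ NK1.1- replicate 1 or 2 (0.54 and 0.56, adjusted p = 0.0558 and 0.0542) or in WT alone (0.54, adjusted p = 0.0511). Cd3d, their neighbour on the chromosome, had 812.4 CPM in Ezh2-KO and 713.4 CPM in WT, against 549.5 to 682.6 CPM, and its 0.31 did not pass (adjusted p = 0.0633). Cd247 fell by 0.58 (standard error 0.08, adjusted p = 0.00441), and the libraries did not overlap within a genotype. The genes of the same receptor complex thus moved in opposite directions. The Cd247 and Cd3e values passed in every alternative, including the values within each genotype.

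Zap70 rose slightly, by 0.26 (standard error 0.07, adjusted p = 0.0431), with 558.4 CPM in Ezh2-KO and 580.6 CPM in WT CD44+ NK1.1+ cells against 449.3 to 509.4 CPM in CD44+ NK1.1- cells. It no longer passed with no filter (0.25, adjusted p = 0.0538), without Ezh2-KO CD44+ NK1.1- replicate 1 or 2 (adjusted p = 0.250 and 0.245), in Ezh2-KO or WT alone (adjusted p = 0.0937 and 0.248) or with library size for scaling (0.12, adjusted p = 0.243), a scaling that also lowered the median of all genes at this step by 0.13. Lat, at 305.2 CPM in Ezh2-KO and 319.7 CPM in WT, did not pass (log2 fold change -0.08, interval -0.29 to 0.13). Thy1 fell by 0.64 (adjusted p = 0.00462) and Cd5 by 0.37 (adjusted p = 0.0151) as means over the genotypes; without Ezh2-KO CD44+ NK1.1- replicate 1 or 2 Cd5 no longer passed (adjusted p = 0.128 and 0.130). Within Ezh2-KO the values were -1.07 for Thy1 and -0.58 for Cd5 (adjusted p = 0.00586 and 0.0190), and within WT they were -0.21 and -0.15 (adjusted p = 0.321 and 0.394). The WT CD44+ NK1.1+ library had 811.7 CPM of Thy1, not far below the WT CD44+ NK1.1- replicates at 881.6 and 995.9 CPM. The differences between the genotype effects are those given above for Thy1, and for Cd5 -0.43 (unadjusted p = 0.0278, adjusted p = 1).

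**Figure D4:**
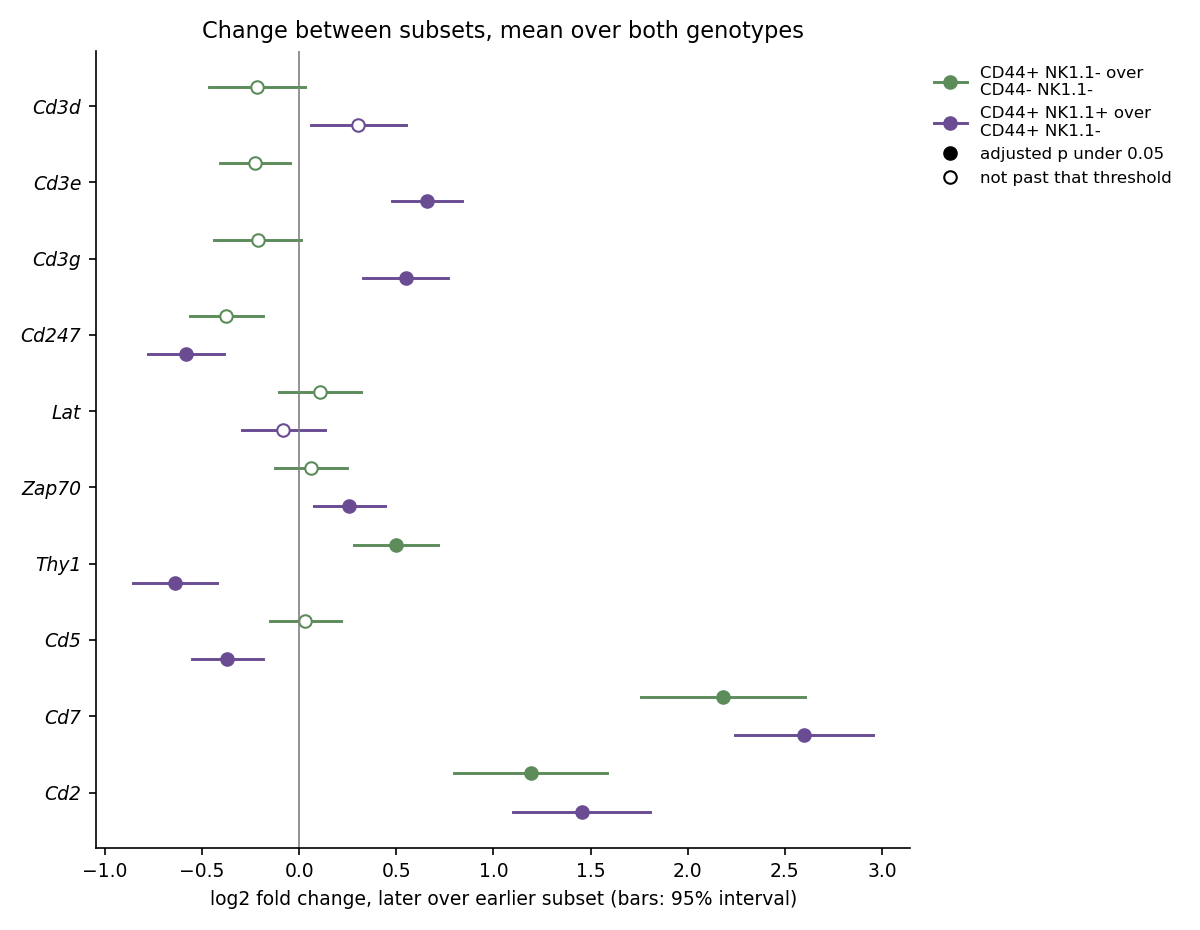
Log2 fold change of each gene between subsets, averaged over both genotypes, CD44+ NK1.1- over CD44- NK1.1- (green) and CD44+ NK1.1+ over CD44+ NK1.1- (purple), with 95% intervals. Filled points passed an adjusted p of 0.05. Cd7 and Cd2 rose at both steps, Thy1 rose and then fell, and at the second step Cd3e and Cd3g rose while Cd247 and Cd5 fell.

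For the members whose log2 level had a standard deviation of at least 0.5 over the 8 libraries (Cd247, Cd7 and Cd2), the genes with the most similar course were found by the root-mean-square distance of centred log2 CPM, among 7846 genes at a mean log2 CPM of at least 4. Nearest to Cd247 were Afp (distance 0.11), Fpgs (0.11) and Prkca (0.12), which encode alpha-fetoprotein, an enzyme of folate metabolism and a protein kinase C. Afp had 28.7 and 29.3 CPM in the Ezh2-KO CD44+ NK1.1- replicates against 16.2 and 18.4 CPM in WT. Nearest to Cd7 were the myosin gene Myo1f (0.38), the transcription factor gene Tbx21 (0.44) and Nkg7 (0.45), a gene of cytotoxic granules. Nearest to Cd2 were Adgre5 (0.14), an adhesion receptor, Sidt1 (0.16) and the adenosine receptor gene Adora2a (0.18). The distances are over 8 libraries that share their subset and genotype structure, and are a description.

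The pathway around these genes was read from 71 further genes in 7 lists. In CD44+ NK1.1- cells 2 of the 71 rose in Ezh2-KO and 6 fell, 11.3% in all against the 4.94% of all genes. The 2 that rose were the constant genes of the delta and gamma receptor chains, Trdc (33.9 and 34.6 CPM in Ezh2-KO against 10.4 and 6.41 CPM in WT, log2 fold change 2.03) and Trgc1 (376.9 and 366.4 CPM in Ezh2-KO against 223 and 245.1 CPM in WT, log2 fold change 0.67). The alpha constant gene Trac, which NKT cells use for their receptor, read 569.6 and 545.2 CPM in Ezh2-KO against 762.8 and 666.4 CPM in WT and did not pass. Among those that fell were Cd48, the ligand of Cd2 in mice (56.1 and 59.0 CPM in Ezh2-KO against 94.8 and 93.8 CPM in WT, log2 fold change -0.71), the kinase regulators Pag1 (-0.66) and Ptpn22 (-0.61), the adaptor Sit1 (-0.58), and the transcription factor gene Nfatc2 (-0.57), which acts downstream of the receptor. Pag1, Ptpn22 and Sit1 are known to restrain receptor signalling, whereas Nfatc2 carries it onward. Of the 10 genes in the separate list of negative regulators, which does not hold Pag1, Ptpn22 or Sit1, and the 5 listed as other ITAM or related adaptors, 0 passed.

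Over the 3 subsets 4 of the 71 rose and 5 fell, 12.7% against 11.3% of all genes. The genes that rose were Trbc2 (0.20), Trgc1 (0.51), Trgc2 (0.69) and Themis (0.52), the last an adaptor of thymocyte selection. Among those that fell were Sos1 (-0.40), Sit1 (-0.54), Nfatc2 (-0.44) and Cd48 (-0.53). In the CD44- NK1.1- and CD44+ NK1.1+ subsets taken alone 0 of the 71 passed, against 0.239% and 0.95% of all genes. With so few genes called in these subsets, 0 of 71 does not set the pathway apart.

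In CD44+ NK1.1+ against CD44+ NK1.1- cells 32 of the 71 rose and 4 fell, 50.7% against 32.5% of all genes. The ITAM adaptors that NK receptors use rose most: Fcer1g by 4.79 and Tyrobp by 3.79, with Hcst, which carries another signalling motif, up by 1.32. Fcer1g, a relative of zeta that can stand in its place in receptor complexes, had 95.1 CPM in Ezh2-KO and 152.8 CPM in WT CD44+ NK1.1+ cells, against 1.08 to 21.0 CPM in CD44+ NK1.1- cells. Zeta and Fcer1g thus moved in opposite directions between these subsets. Syk, the relative of Zap70, rose by 1.57 but stayed at 12.3 CPM in Ezh2-KO and 9.69 CPM in WT. Trac rose by 1.05, the phosphatase gene Ptprc by 0.83, the Tec family kinase genes Txk and Tec by 1.25 and 1.23, and Cd48 by 1.28. The 4 that fell were Themis (-2.06), Icos (-1.45), Cd28 (-0.52) and Cd2ap (-0.47). Icos and Cd28 are costimulatory receptors, and Cd2ap binds the tail of Cd2. At this step NK or innate lymphoid markers, 2 of which are Fcer1g and Tyrobp, summed to 1043 CPM in Ezh2-KO and 642.6 CPM in WT CD44+ NK1.1+ cells, against 25.9 to 120.4 CPM in CD44+ NK1.1- cells. Their part in these values was not tested. In CD44+ NK1.1- against CD44- NK1.1- cells 4 of the 71 rose (Cd79b, Ptpn22, Trat1, Sla) and 1 fell (Trgc1), 7.04% in all against 2.66% of all genes.

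**Figure D5:**
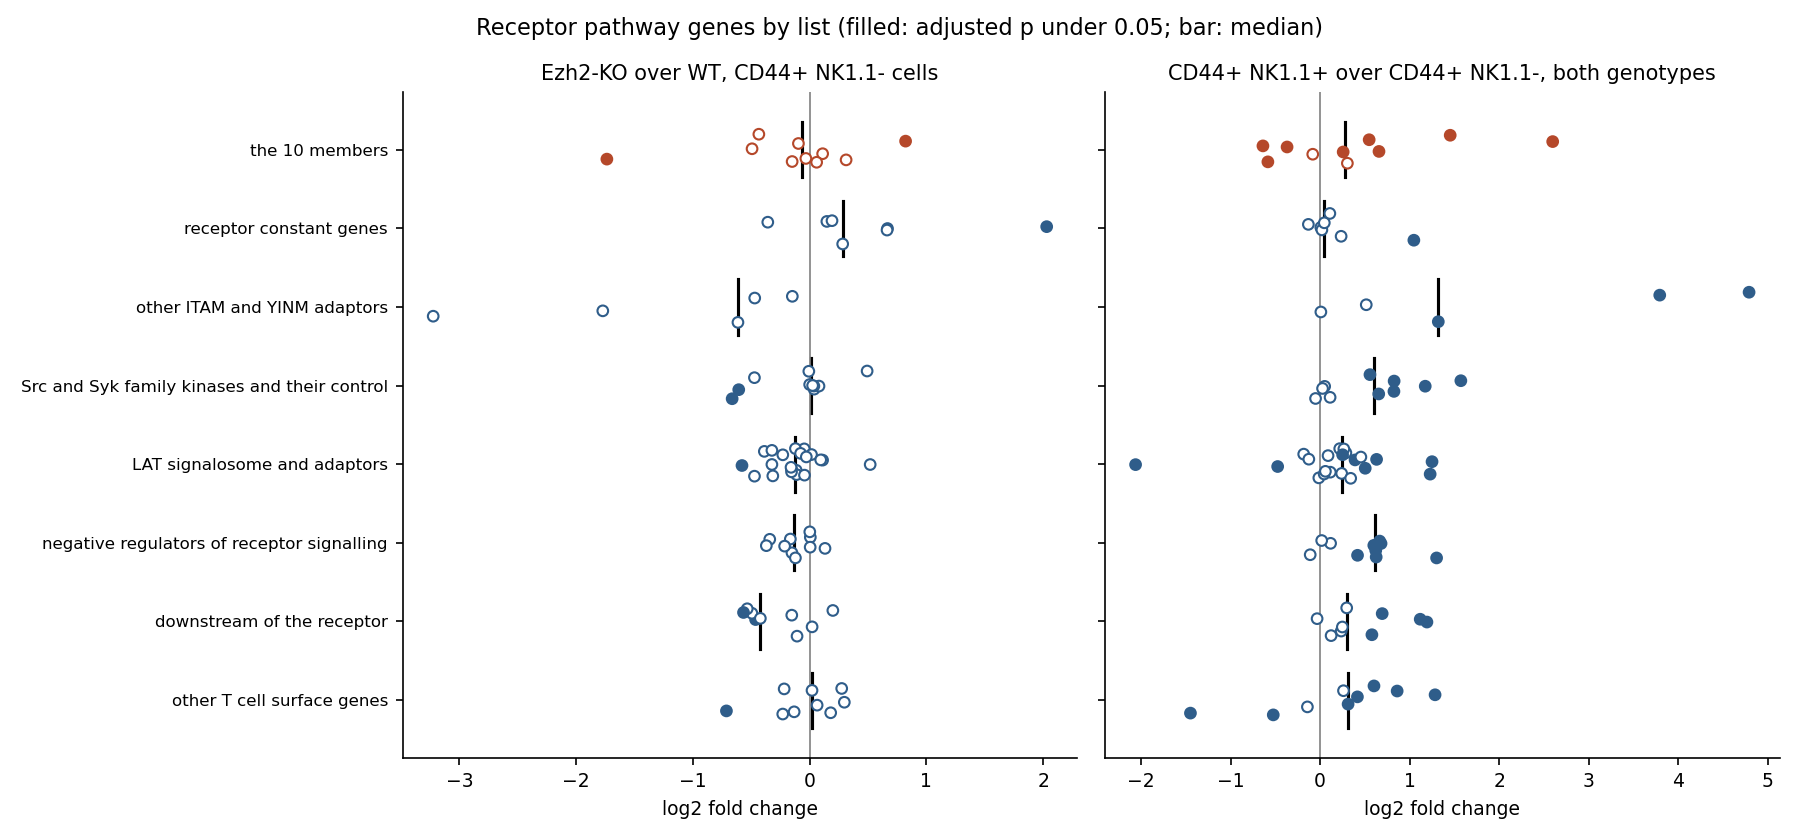
Log2 fold changes of the 10 members (red) and of 71 receptor pathway genes by list (blue), in Ezh2-KO over WT CD44+ NK1.1- cells (left) and in CD44+ NK1.1+ over CD44+ NK1.1- cells of both genotypes (right). Filled points passed an adjusted p of 0.05 and black bars are medians. On the left 2 pathway genes rose and 6 fell; on the right 32 rose and 4 fell, with Fcer1g at 4.79 the farthest.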

How the data were processed

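The values deposited by the authors are raw counts of reads for each gene. Per the labels' protocols, RNA was taken with the RNeasy Plus Mini Kit and made into TruSeq RNA libraries, each run on 4 lanes. Per the submitters' processing notes, the authors used CASAVA, Subread 1.4.3-p1, featureCounts and mouse build mm10. Not given in the sources used here are the annotation and strand setting. Symbols and positions came from RefSeq GRCm38.p6, the same assembly, and 25275 of 27179 identifiers matched.

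Counts were filtered with filterByExpr on 6 groups and scaled by TMM. They were tested with edgeR 4.0.16 (R 4.3.3; glmQLFit with robust=TRUE, quasi-likelihood F test), with p-values adjusted by Benjamini and Hochberg over 13794 genes and called at 0.05. Every adjusted p and standard error printed without another tool's name is from this test. Comparisons within and between subsets came from 1 fit of 6 group means with 2 residual degrees of freedom (single libraries are assumed to vary like the replicated groups). Genotype over the 3 subsets came from a fit of subset plus genotype with 4. Between replicates, 21.5% of Ezh2-KO and 57.0% of WT CD44+ NK1.1- genes differed beyond counting noise, where counting alone gives 5%, so each pair holds different libraries. The fits were run on simulated data with known changes. That simulation gave every gene and group the same relative spread beyond counting, so it does not test calls under the unequal spread of these pairs. Depth was 20308745 to 22995090 counts, so counting error is small for genes at these levels.

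Named were the 10 members in every comparison, called genes of the pathway lists (up to 6 a list, smallest p first) or those with a role beside a member, and the 3 nearest genes by course. Pou2f1, Ezh2 and marker genes were named for checks. The values of 1 pathway gene are not reported here, though the counts include it. The members and lists were chosen with earlier results of these data known. Alternatives were other scalings (DESeq2 size factors, library size), other filters, DESeq2 1.42.0, limma-voom (limma 3.58.1), robust=FALSE and only the 4 CD44+ NK1.1- libraries. Values for 1 genotype alone are contrasts within the fit of all 8 libraries, so the spread is shared by both genotypes. Each of the 8 libraries was left out in turn for genotype over the 3 subsets. For the other comparisons only the 4 CD44+ NK1.1- libraries were left out in turn.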

Additional observations from a re-analysis of the deposited data

How the results depend on the processing

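No paired analysis was possible because the labels give no replicate numbers and do not tie libraries to animals or days. Of 826 values of single members under an alternative, 726 kept their direction and side of the threshold, 30 lost the call, 59 gained one and 11 changed sign, all of them values that were not called.

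Of the 10 members, 2 were called in CD44+ NK1.1- cells between genotypes, and 0 to 6 with 1 library left out. Over the 3 subsets 1 was called, 1 to 3 with 1 library left out, 3 with DESeq2 or the mean of the 3 genotype effects, and 2 with limma-voom or robust=FALSE. In CD44+ NK1.1+ cells 1 was called, 0 to 2 with 1 library left out, 2 with no filter or DESeq2 and 0 with limma-voom. In CD44- NK1.1- cells 0 were called, 0 to 3 with 1 library left out and 1 with no filter or DESeq2. Between CD44+ NK1.1- and CD44- NK1.1- cells 3 were called, 1 to 8 with 1 library left out and 1 in Ezh2-KO alone. Between CD44+ NK1.1+ and CD44+ NK1.1- cells 8 were called, 5 to 9 with 1 library left out and 4 in WT alone. For the difference of genotype effects, 0 were called against 2 with DESeq2 for CD44+ NK1.1+ minus CD44+ NK1.1- cells, and with 1 library left out 0 to 4 there and 0 to 3 for CD44- NK1.1- minus CD44+ NK1.1- cells.

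The signs that changed were those of Cd3g between genotypes with library size for scaling (0.015 in CD44+ NK1.1- cells, 0.011 over the 3 subsets, 0.017 in CD44- NK1.1- cells) and with 1 library left out (-0.14 to 0.081 in CD44+ NK1.1- cells and -0.069 to 0.017 over the 3 subsets, the highest in both without WT CD44+ NK1.1- replicate 1), of Lat over the 3 subsets with 1 library left out (-0.097 to 0.077, below 0 without either CD44- NK1.1- library), of Cd3d in CD44- NK1.1- cells with no filter (-0.002428), and, between CD44+ NK1.1- and CD44- NK1.1- cells, of Cd5 in WT alone (-0.023) and of Lat and Zap70 in Ezh2-KO alone (-0.11 and -0.043). Library size for scaling also moved the share of called genes that were higher to 68.1% over the 3 subsets, against 56.8% with TMM, and to 31.8% in CD44+ NK1.1+ against CD44+ NK1.1- cells, against 50.5%.

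The replicated pairs set the spread. Without an Ezh2-KO CD44+ NK1.1- replicate 101 or 108 genes were called between genotypes in that subset, and without a WT replicate 3752 or 5792, against 682 with all, since the spread then rests on the other pair alone. Calls in the CD44+ NK1.1+ and CD44- NK1.1- subsets have no replicate check.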
